A study of Mus musculus with 4 samples.

Results

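Neurons that release glutamate or GABA can be told apart by a handful of genes. Glutamate is loaded into synaptic vesicles by the vesicular glutamate transporters VGLUT2, VGLUT1 and VGLUT3, encoded by Slc17a6, Slc17a7 and Slc17a8. GABA is made from glutamate by the decarboxylases GAD67 and GAD65, encoded by Gad1 and Gad2, and is loaded into vesicles by VGAT, encoded by Slc32a1. In the hypothalamic paraventricular nucleus (PVH) most neurons are glutamatergic and carry Slc17a6, whereas GABA neurons are dense in the tissue around it. These 6 genes were selected on their transmitter roles, with peak presence, fold enrichment and rank in these libraries already known, out of 21896 protein-coding genes, and every peak of open chromatin that overlapped a gene body or the 50 kb to each side of it was described. Overlapping peaks of the 4 libraries were merged into 67299 regions, of which 40 lay there. The region about 28 kb from Gad2 was chosen by its fold and rank in the AAV-GFP and AAV-Cre libraries, so all values below are descriptions without a test.

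ATAC-seq, which marks accessible DNA by where a transposase can cut and tag it, was run on PVH tissue of mice 12 weeks old. All mice carried Otp fl/fl, loxP-flanked alleles of the homeodomain transcription factor gene Otp, together with the Ai14 reporter allele. They received an adeno-associated virus as adults and were dissected 4 weeks later, 2 libraries after AAV-GFP (control) and 2 after AAV-Cre, whose recombinase removes Otp from the cells it infects. The labels do not name the promoter of the virus, the sex or number of animals behind a library, or a sort for infected nuclei, and differences between libraries of a group may therefore be technical. Nuclei of all PVH cell types and of any neighbouring tissue in the dissection are mixed, and fewer open nuclei of a type cannot be told apart from less open chromatin per nucleus.

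The values are the authors' peak lists, with 57682 and 34100 peaks in AAV-GFP replicates 1 and 2 and 23384 and 26612 in AAV-Cre replicates 1 and 2. Depth is unknown, and longer lists reach weaker peaks. Fold enrichment, as the authors give it, relates the signal at a summit to background and describes a peak within its own list. A rank of 1 is the strongest peak of a list by −log10 p. A region is called shared when all 4 libraries had a peak in it, control-specific when AAV-GFP replicates 1 and 2 alone had one, and Cre-specific in the converse case. With 2 against 2 libraries there are 3 splits, so the smallest p of an exact permutation test is 1 in 3. By the same reading of starts, 5 of 6 pan-neuronal markers (Snap25, Syt1, Stmn2, Tubb3 and Elavl4) had peaks in all 4 libraries, while 0 of 5 microglial and 0 of 5 endothelial markers had a peak in any. Of 5 astrocyte markers 2 and of 5 oligodendrocyte markers 2 had a peak in some library and 0 in all 4. Among PVH markers Pou3f2 was shared, Sim1 had a start peak only in AAV-GFP replicate 1, and the hormone genes Avp, Oxt and Trh had none at their starts. The hormone gene Crh, read at either gene end, had a peak in AAV-GFP replicate 1 (fold 10.3) and AAV-Cre replicate 2 (4.42).

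The promoters that the results turn on are shown from RefSeq (GRCm38.p6, the mm10 assembly), from 250 bases before to 50 bases after a listed start, 5′ to 3′ on the gene's strand. Capitals mark matches, on either strand, to TAATTA (a core that many homeodomain proteins bind), GGGCGG (the GC box), TATAAA (the TATA box), TGACGTCA (the CREB element) or CACGTG (an E-box). Slc17a6 has 2 listed starts, the first at a control-specific peak and the second at none, and both are given. Slc32a1 and Gad2 are given because merged regions, though not the peak of every library, covered the whole of their windows.
Slc17a6, first start, chr7:51621580-51621879, plus strand: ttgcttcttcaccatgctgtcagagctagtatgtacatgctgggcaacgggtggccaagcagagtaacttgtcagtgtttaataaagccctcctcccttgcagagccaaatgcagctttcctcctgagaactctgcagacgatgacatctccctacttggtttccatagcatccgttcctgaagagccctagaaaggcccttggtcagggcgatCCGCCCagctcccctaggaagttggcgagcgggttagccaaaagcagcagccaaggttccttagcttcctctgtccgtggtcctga
Slc17a6, second start, chr7:51624387-51624686, plus strand: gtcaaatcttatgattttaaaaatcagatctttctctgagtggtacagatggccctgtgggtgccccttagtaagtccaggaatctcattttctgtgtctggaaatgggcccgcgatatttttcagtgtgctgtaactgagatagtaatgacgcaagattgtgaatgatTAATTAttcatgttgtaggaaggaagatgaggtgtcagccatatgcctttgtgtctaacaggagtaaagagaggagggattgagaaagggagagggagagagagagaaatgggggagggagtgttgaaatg
Slc32a1, chr2:158610508-158610807, plus strand: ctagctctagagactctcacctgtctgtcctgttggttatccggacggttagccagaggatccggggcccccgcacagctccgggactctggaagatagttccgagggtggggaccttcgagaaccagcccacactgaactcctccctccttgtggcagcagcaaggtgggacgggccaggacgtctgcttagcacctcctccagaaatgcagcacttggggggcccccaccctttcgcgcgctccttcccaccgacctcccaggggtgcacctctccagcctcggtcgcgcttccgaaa
Gad2, chr2:22622077-22622376, plus strand: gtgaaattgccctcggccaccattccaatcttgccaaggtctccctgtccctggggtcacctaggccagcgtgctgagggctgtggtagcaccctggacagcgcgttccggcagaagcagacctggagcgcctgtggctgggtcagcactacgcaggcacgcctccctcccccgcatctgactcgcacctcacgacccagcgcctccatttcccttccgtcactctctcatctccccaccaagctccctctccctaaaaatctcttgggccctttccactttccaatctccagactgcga

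The first Slc17a6 window held 1 GC box, which 46.3% of the first-listed promoters of 17491 protein-coding genes also hold. The second held 1 TAATTA, found in 4.67% of those promoters. That share is of first-listed starts and was not matched for GC content. A second listed start of Slc17a8 also held 1 TAATTA, and no peak covered that window either. The Slc32a1 and Gad2 windows held none of the 5 sequences. Of the 300 bases of each window, the merged regions covered 148 in the first Slc17a6 window, 0 in the second, and 300 in Slc32a1 and in Gad2. GC content was 53.7% at the first Slc17a6 start, 43% at the second, 63.3% at Slc32a1 and 61.3% at Gad2, against a median of 56.3% over all promoters. The number of CG dinucleotides was 8, 3, 17 and 14 in the same order, against a median of 13. A match of letters does not show that a factor binds there.

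At transcription starts the glutamate and GABA genes differed in which libraries held a peak within 1 kb. Slc17a6 had a start peak in the controls alone, Gad2 in all 4 libraries, and Slc32a1 and Gad1 in 3 each. Slc17a7 and Slc17a8 had none in any library. Of 17491 protein-coding genes with a listed start, 44.1% had a start peak in all 4 libraries, 40.5% in none, 2.93% in both controls alone and 0.0457% in both AAV-Cre libraries alone. The 6 genes thus held 1 control-specific start and 0 Cre-specific starts.

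At Slc17a6 the control-specific region spanned chromosome 7, 51621732 to 51622083, overlapped the first listed start and the noncoding gene Gm33136, and had folds of 4.95 and 5.96 in AAV-GFP replicates 1 and 2. These peaks stood at ranks 35342 and 18680, near the middle of their lists. In the authors' deposited group lists the control pool had this peak (fold 5.95) and the AAV-Cre pool did not. A weaker peak 415 bp from the start was listed for AAV-GFP replicate 1 (3.78) and for no other library. When every list was reduced to its 23384 strongest peaks, the length of the shortest, the peak of AAV-GFP replicate 1 fell below the limit, and only that of AAV-GFP replicate 2 remained.

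At Slc32a1 the region over the start, chromosome 2, 158610329 to 158611086, had folds of 6.66 and 7.03 in the controls and 4.42 in AAV-Cre replicate 2, with no peak in AAV-Cre replicate 1. The region also overlaps the gene Gm14204. The control peaks ranked 11735 and 7797 and the AAV-Cre peak 21013. Both controls were thus nearer the top of their lists than the AAV-Cre library that had a peak. The group lists of the authors held it at a fold of 7.53 in controls and not after AAV-Cre.

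At Gad1 the start held scattered peaks, and those of the controls did not coincide. AAV-GFP replicate 1 held peaks 795 bp (fold 3.00) and 402 bp (3.56) from the listed start, AAV-GFP replicate 2 had one 78 bp from it (3.40), and AAV-Cre replicate 1 had one at the 795 bp position (5.27). AAV-Cre replicate 2 had no peak there, and no region at this start was common to both controls. Neither group list held a peak at the Gad1 start.

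At Gad2 the region over the start, chromosome 2, 22622054 to 22622755, was present in all 4 libraries with folds of 5.07 and 6.10 in the controls against 4.77 and 4.99 after AAV-Cre. The folds of the groups did not overlap. By whole-list percentile, where 100 is the weakest peak, it stood at 47.9 and 38.7 in the controls against 74.6 and 70.4 after AAV-Cre, again without overlap. Ranked among the shared regions alone, it stood at 92.2 and 72.7 in the controls against 89.2 and 88.7, and the groups overlapped. With peaks of a −log10 q of at least 5 alone, both AAV-Cre peaks (3.67 and 4.27) dropped out and both control peaks (7.05 and 9.10) stayed. Cutting all lists to equal length did the converse for 1 control. The peak of AAV-GFP replicate 1 dropped out, and those of AAV-GFP replicate 2 and of both AAV-Cre libraries stayed.

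**Figure D1:**
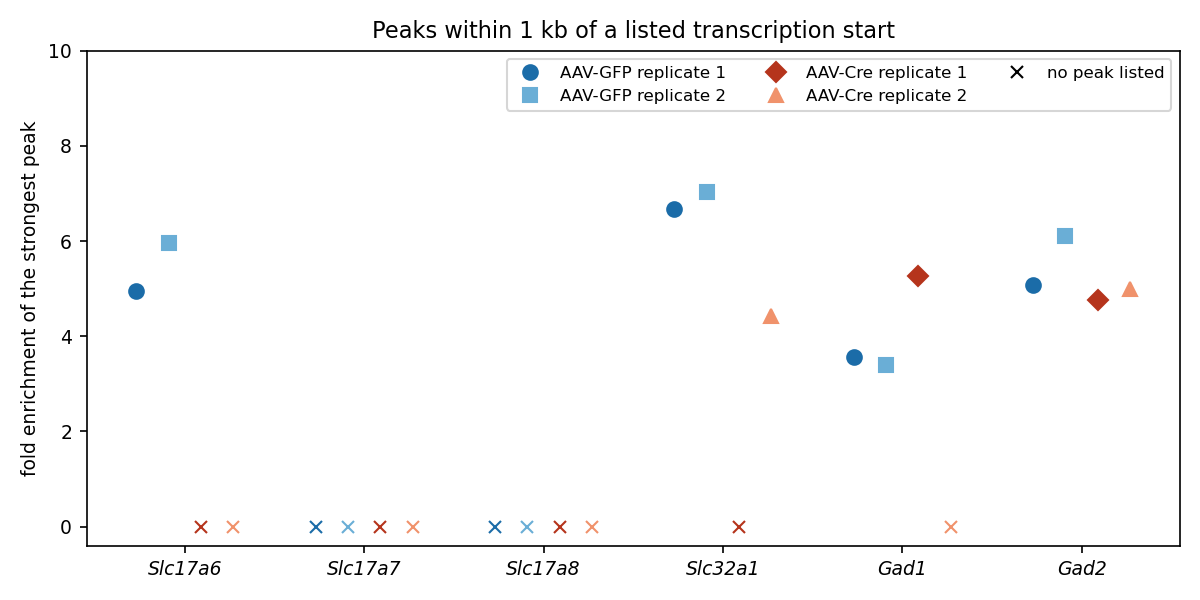
Fold enrichment (authors' value, vertical axis) of the strongest peak within 1 kb of a listed start of each gene, 1 point a library; crosses on the zero line mark libraries with no peak listed and are not measured values. Slc17a6 has points for the AAV-GFP libraries alone, at 4.95 and 5.96, and Gad2 for all 4, from 4.77 to 6.10.

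Among the 13 shared regions of these genes, the one with the largest rank shift, by whole-list and by shared-region percentile, was beyond the end of Gad2. A region on chromosome 2 from 22721695 to 22722290, 27.8 kb past Gad2 and 33.7 kb from Apbb1ip, the nearest protein-coding gene on the other side, had folds of 13.3 and 9.73 in AAV-GFP replicates 1 and 2 against 4.17 and 3.95 in AAV-Cre replicates 1 and 2. The −log10 q was 31.5 and 17.0 in the controls against 2.52 and 2.29 after AAV-Cre. The peak ranked 4605 of 57682 and 6437 of 34100 in the controls, and 21725 of 23384 and 25345 of 26612 after AAV-Cre. Both control peaks were therefore among the stronger peaks of longer lists, and both AAV-Cre peaks were near the foot of shorter ones. The summits of the 4 peaks lay within 109 bp of each other, and the peaks were 248 and 596 bp wide in the controls against 175 and 172 bp after AAV-Cre. The authors' deposited group lists gave a fold of 14.1 for the control pool and 4.78 for the AAV-Cre pool, at ranks 4748 of 28592 and 16441 of 16614.

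Rank was also expressed as a percentile from the strongest, where 100 is the weakest. In the whole lists the mean of this region moved from 13.4 ± 7.70 (SD, n = 2) in controls to 94.1 ± 1.65 (SD, n = 2) after AAV-Cre, a shift of 80.6 points. No other of the 14634 shared regions shifted so far toward weaker rank by this measure. Regions without an AAV-Cre peak, such as the 7728 control-specific ones, have no such shift and are not in this order. With all lists cut to equal length, the AAV-Cre replicate 2 peak of the Gad2 region dropped out, and it was no longer shared. Since shared regions stand nearer the top of a longer list, the median shift of all shared regions was itself 9.58 points (SD 15.7). Ranked only among the shared regions, which gives every library the same number of ranks, the Gad2 region stood at percentiles 30.0 and 42.1 in controls and 97.8 and 98.9 after AAV-Cre. That shift of 62.3 points was the 3rd largest of 14634 toward weaker rank. Over all of them the median was -0.03 and the SD 16.4. The region was chosen by its fold and rank in these same libraries, so its place in either order only describes it.

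Regions close to it and inside Gad2 were control-specific. A region 30.3 kb past Gad2, chromosome 2, 22724203 to 22724521, had folds of 6.62 and 4.99 in the controls and no AAV-Cre peak. A region inside Gad2, 57446 bp from its listed start at chromosome 2, 22679773 to 22680351, had folds of 8.08 and 6.68 in the controls and no AAV-Cre peak. The control group list held both (7.01 and 8.38) and the AAV-Cre group list neither. Cutting all lists to equal length left both control-specific. With the −log10 q limit of 5 the first lost its peak in AAV-GFP replicate 2 (4.71) and the second stayed control-specific. The remaining Gad2 regions downstream of the start were single-library peaks, in AAV-GFP replicate 1 inside the gene (4.93 and 4.40) and for AAV-GFP replicate 2 at 11.1 kb past its end (5.29).

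**Figure D2:**
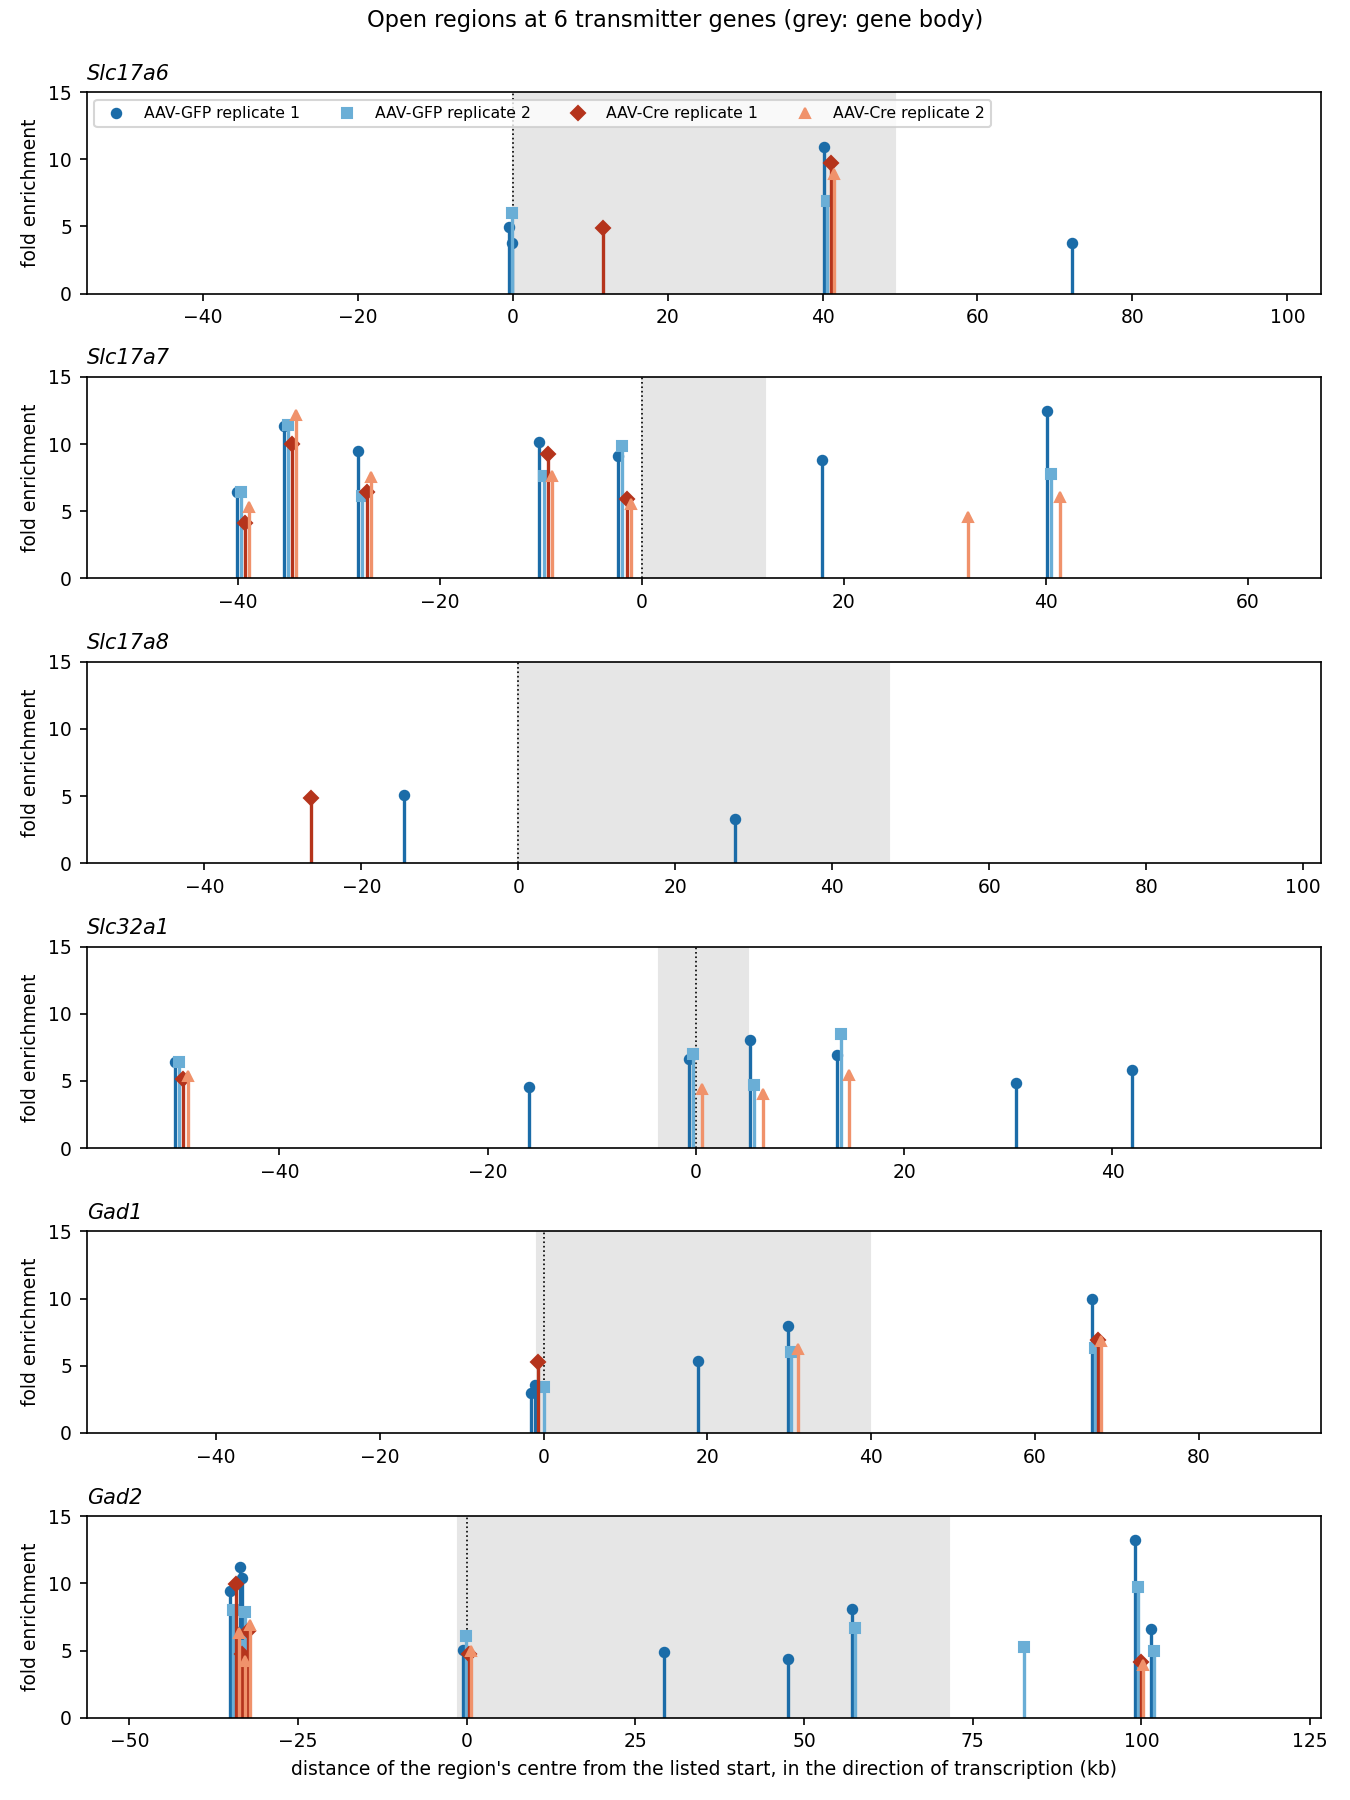
Fold enrichment (vertical axis) of every merged region within 50 kb of each gene against the distance of its centre from the first listed start in kb, in the direction of transcription; grey marks the gene body, the dotted line the start, and the 4 libraries of a region are set side by side by up to 0.6 kb. At the right of the Gad2 panel the AAV-GFP libraries stand at 13.3 and 9.73 and the AAV-Cre libraries at 4.17 and 3.95, and Slc17a8 has 3 regions of 1 library each.

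At a region inside Slc17a6 the rank among shared regions moved the other way. At chromosome 7, 51662445 to 51662867, 40615 bp past the first start, all 4 libraries had a peak, with folds of 10.9 and 6.88 in the controls against 9.71 and 8.93 after AAV-Cre. Folds of the groups overlapped. Ranks in the whole lists were 9244 and 15367 in the controls against 2942 and 4998 after AAV-Cre. Among shared regions its percentile was 54.2 and 79.0 in the controls against 19.9 and 33.2 after AAV-Cre, a shift of -40.1 points toward stronger rank, which 1.28% of shared regions reached. By whole-list percentile the groups overlapped and the shift was -14.9 points. The group lists gave folds of 10.9 and 11.9, at ranks 11257 of 28592 in controls and 3170 of 16614 after AAV-Cre. Peaks of a single library made up the rest, at 11443 bp from the start in AAV-Cre replicate 1 (4.85) and 23439 bp past the gene in AAV-GFP replicate 1 (3.73).

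At Slc32a1, 3 regions had a peak in every library but AAV-Cre replicate 1. Beside the start, a region 573 bp past the end of the gene had folds of 8.06 and 4.69 in the controls and 4.03 in AAV-Cre replicate 2. A region 8.9 kb past the end, which lies at an end of Actr5, a gene of the INO80 chromatin remodelling complex, had 6.89 and 8.46 in the controls and 5.42 in AAV-Cre replicate 2. AAV-Cre replicate 1 did have a peak, as the others did, 45.5 kb upstream of the gene, with folds of 6.39, 6.44, 5.16 and 5.34 in AAV-GFP replicates 1 and 2 and AAV-Cre replicates 1 and 2. A region inside Gad1, chromosome 2, 70592296 to 70592870, followed the same pattern, with 7.97 and 6.01 in the controls, 6.25 in AAV-Cre replicate 2 and none in AAV-Cre replicate 1. So did one at the Kash5 start, 28.3 kb past Slc17a7 (12.4, 7.77 and 6.08). In all, 5 of the 21 regions with a peak in both controls were absent from AAV-Cre replicate 1 alone and 0 from AAV-Cre replicate 2 alone, against 13.7% and 8.08% of all 28575 such regions. AAV-Cre replicate 1 has the shortest list, and its part in these absences was not tested. In the AAV-Cre group list of the authors none of these 5 regions had a peak.

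Gad1 otherwise had a region 27.5 kb past its end that all 4 libraries shared, at chromosome 2, 70629482 to 70629805, with folds of 9.98 and 6.34 in the controls against 6.95 and 6.83 after AAV-Cre. The AAV-Cre values lay between those of the controls.

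For Slc17a7, which is expressed mainly in cortex, hippocampus and cerebellum, 6 of the 8 regions lay within 1 kb of an end of another protein-coding gene. These include the ribosomal protein gene Rpl13a, the cytokine gene Flt3l, and the adjoining Aldh16a1 and Pih1d1. The region at Rpl13a was among the strongest near any of the 6 genes, with folds of 11.3, 11.5, 10.03 and 12.1 and ranks of 813, 704, 734 and 229. The shared region nearest to Slc17a7 itself, chromosome 7, 45161956 to 45162430, ended 1491 bp before the start and had folds of 9.08 and 9.83 in the controls against 5.89 and 5.52 after AAV-Cre. There the groups did not overlap, and the percentile among shared regions was 48.3 and 34.8 in controls against 61.6 and 75.3 after AAV-Cre. With a start window of 2500 bp this region would count as a start peak of Slc17a7 in all 4 libraries. Around Slc17a8, 0 regions had a peak in more than 1 library, and the 3 single peaks had folds from 3.26 to 5.11.

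Upstream of Gad2, 31.1 to 32.8 kb from the gene and inside Myo3a, a myosin gene of the inner ear, lay a cluster of 3 shared regions and 1 region of AAV-GFP replicate 1 alone (11.3). The outermost of the shared regions had folds of 9.41 and 8.00 in the controls against 9.98 and 6.29 after AAV-Cre, and the groups overlapped. The middle one, 32.0 kb away, had 6.35 and 5.36 against 4.76 and 4.26. The innermost, 31.1 kb away, had 10.4 and 7.85 against 6.44 and 6.90. In these last regions both AAV-Cre folds lay below both controls. By percentile among shared regions the innermost was weaker in both AAV-Cre libraries (4.33 and 1.97 against 5.62 and 16.7), and the middle one overlapped.

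**Figure D3:**
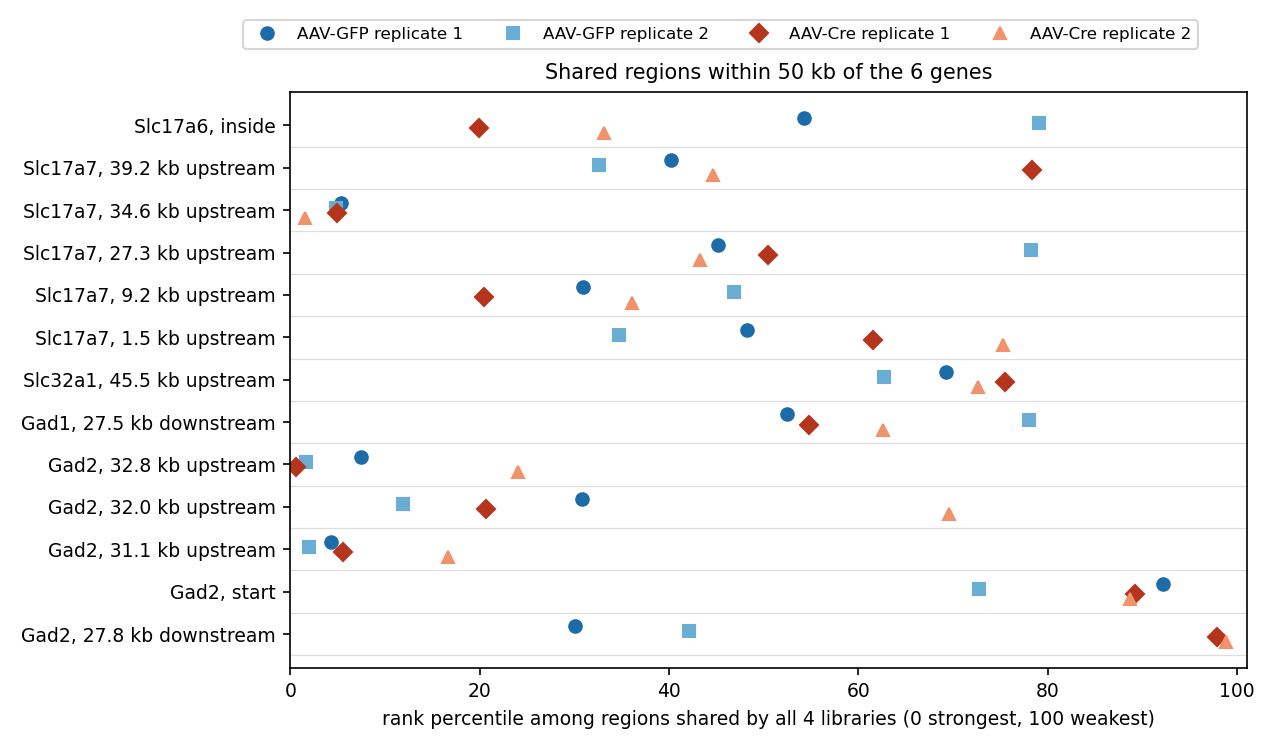
Rank percentile by −log10 p among the 14634 regions shared by all 4 libraries (horizontal axis, 0 strongest and 100 weakest) for the 13 shared regions, 1 point a library. In the lowest row the controls stand at 30.0 and 42.1 and the AAV-Cre libraries at 97.8 and 98.9, and in the top row the AAV-Cre libraries lie on the stronger side of both controls.

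Over the 40 regions, 13 (32.5%) were shared, 3 (7.5%) control-specific and 0 Cre-specific, against 21.7%, 11.5% and 1.18% of all regions. Peaks of 1 library alone made up 18, of which 13 came from AAV-GFP replicate 1, against 48.8% of all regions seen in 1 library. Of the 21 regions with a peak in both controls, 3 (14.3%) had none after AAV-Cre, against 27.0% overall. That overall share was 8.0% for regions within 1 kb of a start and 36.2% elsewhere. The members' share is no higher than the background. Around the GABA genes 7 of 24 regions were shared and 2 control-specific. Around the vesicular glutamate transporters 6 of 16 were shared, 4 of them at ends of other genes, and 1 was control-specific.

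Among the 13 shared regions 5 ranked weaker in both AAV-Cre libraries than in both controls by percentile among shared regions, 1 ranked stronger and 7 overlapped, against 19.7% weaker and 19.8% stronger of all shared regions. By whole-list percentile 7 ranked weaker and 0 stronger, against 46.9% and 4.18%. The median shift by percentile among shared regions was 7.72 points for the 13 and -0.03 for all. By whole-list percentile the median was 8.69 points for the 13 and 9.58 for all, so there the 13 shifted no further. Of the 13, 5 lay around Gad2 alone. Past the 50 kb limit, the nearest region left out lay 51.2 kb from Slc32a1 and was shared (5.28, 5.87, 5.18 and 5.24), and the farthest taken in was that 45.5 kb upstream of the same gene. From 50 to 100 kb lay 19 further regions, of which 5 were control-specific, against 11.5% of all regions. Around Slc32a1, 3 of these regions were control-specific, 1 was shared and 4 had peaks in other combinations.

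**Figure D4:**
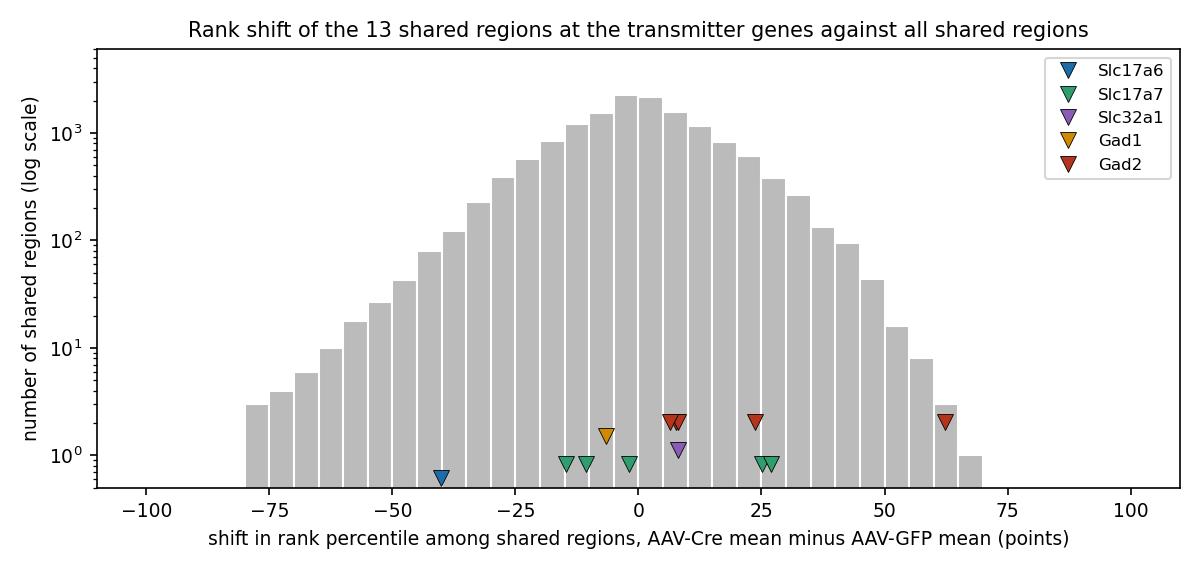
Number of shared regions (vertical axis, log scale) by shift in rank percentile among shared regions, AAV-Cre mean minus AAV-GFP mean in points (horizontal axis, bins of 5 points), with triangles at the 13 shared regions of the transmitter genes, set at separate heights by gene. The Gad2 region at 62.3 points is in the right tail and the Slc17a6 region at -40.1 points in the left one.

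Other genes of glutamate and GABA handling mostly had start peaks in every library or in none, as did protein-coding genes at large (44.1% in every library and 40.5% in none). Of 8 genes of synthesis and breakdown 6 were shared, 0 control-specific and 0 Cre-specific. The shared ones included Glul, glutamine synthetase (folds 13.9 and 9.24 in controls, 7.75 and 7.71 after AAV-Cre), Got1, an aspartate aminotransferase (14.4, 13.9, 9.74 and 8.60 in the same order), and Abat, the GABA transaminase (14.4, 14.9, 10.9 and 10.3). Aldh5a1, which removes succinic semialdehyde, had a peak in all but AAV-Cre replicate 2. Of 11 genes of uptake and glutamine transport 5 were shared and 0 specific to a group, among them Slc1a1, a neuronal glutamate transporter (8.76, 7.91, 9.36 and 7.31). Slc1a2, the main astrocytic glutamate transporter, had none. Of 11 genes of other transmitters 2 were shared, 8 had no peak and 0 were specific to a group. Th, Chat, Hdc and Tph2, which make catecholamines, acetylcholine, histamine and serotonin, were among those with none.

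Of 13 transcription factors of GABA neurons, Dlx2 (4.45 and 4.97) and Dlx6 (7.75 and 6.41), homeodomain genes of forebrain GABA neurons, were control-specific, 0 were Cre-specific, 1 (Dlx5) was shared, 6 had none and 4 had peaks in other combinations. Over all genes with a listed start 2.93% were control-specific, 44.1% shared and 40.5% without a peak. Dlx1 had peaks in both controls (8.25 and 7.67) and in AAV-Cre replicate 2 (4.76), as Slc32a1 did. Dlx5 and Dlx6 had no listed start and were read at either end of the gene. Of 12 transcription factors of glutamate neurons 1, Pou3f2, was shared, 0 were specific to a group and 7 had none. Otp had a start peak in both controls (3.73 and 4.22) and in AAV-Cre replicate 2 (5.52).

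Likeness to the members was measured as the mean absolute difference in rank percentile of the start peak over the 4 libraries, with no peak set to 100. Nearest to Slc17a6 were Cnih3 (0.232 points) and Nde1 (0.435), nearest to Slc32a1 were Lrguk (1.73) and Dlx1 (1.88), nearest to Gad2 were Sppl3 (2.47) and Ppp1r32 (3.57), and nearest to Gad1 were Me1 (3.94) and Ncam2 (4.32). Where both genes lacked a peak, this rule gave no difference, as in both AAV-Cre libraries for Slc17a6, Cnih3 and Nde1. The values of different members are therefore not directly comparable. With 4 values for each gene and 17491 genes, small differences are common.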

How the data were processed

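The authors deposited 1 peak list for each of the 4 libraries and 1 for each of the 2 groups, whose peak names mark a pool. The tools named on mm10, per the submitters' processing notes, are MACS2, Bowtie2, Trim Galore and FastQC, with no roles, versions or thresholds given. In the deposited lists the fold enrichment is a ratio to background, −log10 p and −log10 q belong to each peak, the score repeats −log10 q as a whole number 10 times as large, and the summit is in bp. The score was not used, and depth is unknown.

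Peaks sharing at least 1 bp were merged into regions with Python 3.11.15 and pandas 2.3.3, after a check on simulated data. Where a library had more than 1 peak in a region, the strongest by −log10 p was taken. Gene bodies and starts came from RefSeq tables (GRCm38.p6). Of 21896 protein-coding genes 17491 had a listed start, the 6 members among them, and listed genes without one were read within 1 kb of either gene end. All 6 genes, and from the other lists the group-specific genes and the strongest examples, were named, except that a few genes of these lists or near the members are not reported here. The members and lists were chosen with earlier results of these data known. Regions are not replicates, and no test was run.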

Additional observations from a re-analysis of the deposited data

How the results depend on the processing

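Peak lists without counts limit what can be said: depth is unknown, and a missing peak can be a weak one. As deposited, 3 regions near the 6 genes were control-specific. With the −log10 q limit of 5 there were 6, with a window of 100 kb 8 and with the authors' group lists 8. Leaving out a library gave 3 to 16, with 16 without AAV-GFP replicate 2, 8 without AAV-Cre replicate 2 and 5 without AAV-GFP replicate 1. A region becomes specific more readily when fewer libraries are read. The 6 at the stricter q were the starts of Slc17a6, Slc32a1 and Gad2, the regions inside and 27.8 kb past Gad2, and that 573 bp past Slc32a1. Cre-specific regions numbered 0 in every alternative with 4 libraries or by group lists, and 0 to 2 with a library left out. The 13 shared regions became 4 with a window of 10 kb, which takes in fewer regions. Genes with a start peak in all 4 libraries, 1 as deposited, numbered 0 at equal length, 0 at the stricter q, 2 with a start window of 2500 bp and 1 to 2 without a library. The shift of the Gad2 region, 80.6 points, was 62.3 among shared regions and 75.2 to 86.1 without a library. At equal length 3 were control-specific, namely both Gad2 regions and that 573 bp past Slc32a1, and Slc17a6 was not. No paired analysis was possible because no result comes from a fitted model.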

Other observations

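The 3 shared regions of the cluster inside Myo3a, 31.1 to 32.8 kb upstream of Gad2, had far smaller p-values than other peaks of like fold. In AAV-GFP replicate 2 the outermost region had a fold of 8.00 and a −log10 p of 85.1, whereas the 4391 peaks of that list with a fold within 10% of it had a median of 15.7. The ratio to the median of peaks of like fold was 3.09, 5.43, 3.06 and 1.86 in AAV-GFP replicates 1 and 2 and AAV-Cre replicates 1 and 2 for that region. For the region 27.8 kb past Gad2 it was 0.851, 0.913, 0.944 and 0.911, and for the Gad2 start 1.33, 1.21, 0.996 and 0.983. The middle region of the cluster ranked 12301 of 26612 in AAV-Cre replicate 2, near the middle of that list. Its cause was not tested, and repeats and mappability were not analysed here.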
